A study of Mus musculus with 14 samples.

Results

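Foxp3+ regulatory T cells (Tregs) restrain immune responses, and those of the Peyer's patches (PP), the lymphoid follicles of the small intestine, sit beside germinal centres that are exposed to luminal antigen. JunB is a subunit of AP-1, a family of paired basic leucine zipper factors that also holds Fos, Fosl, Batf and Jdp2 proteins and that binds DNA downstream of the T cell receptor and of cytokine receptors. Which programs of PP Tregs move when Junb is lost throughout the life of the lineage was examined in 4 RNA-seq libraries, of 14 in the series, by comparing 2 HET libraries with 2 KO libraries across all expressed genes.

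All 4 libraries came from male mice without tamoxifen, and both groups carried the Foxp3YFPcre allele, in which the promoter of the X-linked Foxp3 gene drives YFP and Cre. The HET mice were JunB F/+ Foxp3YFPcre and the KO mice JunB F/F Foxp3YFPcre, so that Tregs of the controls had also lost 1 of the 2 Junb alleles. The mice of the study were generally 8 to 12 weeks old. CD4+Foxp3(YFP)+ cells were sorted from PP by a gate that is narrower than all Tregs and is not reported in full here. This Cre is known to delete outside the Treg lineage, and KO mice of this line lost weight and developed intestinal inflammation, so that loss of Junb in these cells and the state of the animal cannot be told apart. The labels do not say whether a library is 1 mouse or a pool, and p-values measure only the spread between these libraries. In bulk RNA fewer cells of a type and less RNA per cell cannot be told apart.

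The libraries held between 27352465 and 30281612 counts of reads in genes. Values are given as CPM, the counts divided by the library total and scaled by the trimmed mean of M values. Summed levels of a list cover every member in the file, tested or not, and were divided by the library total alone. The Pearson correlation of log2 CPM was 0.985 between the HET libraries, 0.981 between the KO libraries and 0.956 to 0.964 across the groups. The T cell markers Cd3e, Cd4, Trac and Ctla4 were abundant in each library, with Cd4 at 983 and 950 CPM in HET against 1017 and 1049 CPM in KO. Junb was at 4752 and 5329 CPM in HET and at 606 and 561 CPM in KO, and fell by 3.11 on the log2 scale (SE 0.107, adjusted p = 4.742e-05 by edgeR's quasi-likelihood test). KO 1 had the fewest genes with a count, 20389, against 23249 to 24668 in the other libraries.

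A total of 12224 genes reached 1 CPM in 2 or more libraries. Of these, 121 (0.990%) were called higher and 288 (2.36%) lower in KO at an adjusted p under 0.05, together 409 or 3.35%. The HET and KO libraries did not overlap for any of the 409, while they did not overlap for 43.6% of all genes tested. Genes that rose and genes that fell differed in shape. Those that rose were mostly well expressed and moved little, with a median log2 fold change of 0.70, a median of 62.0 CPM in HET against 123 CPM in KO, and 40 of 121 over 2-fold. Those that fell included 110 genes (38.2%) that were under 1 CPM in both KO libraries, with a median of 3.29 CPM in HET. The other 178 (61.8%) were still at 1 CPM or more in a KO library, and fell from a median of 35.2 CPM in HET to 15.9 CPM in KO. The number of calls rested on both HET libraries. Without HET 1 the test called 36 genes and without HET 2 it called 55, against 384 without KO 1 and 390 without KO 2. With HET 1 or HET 2 left out, 299 of the called genes still passed the filter on low counts, and most of these lost their call. Part of the 409 calls was also lost without KO 1 or without KO 2. The genes were chosen as called from all libraries, so that a repeat on a part of them is no independent check.

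**Figure D1:**
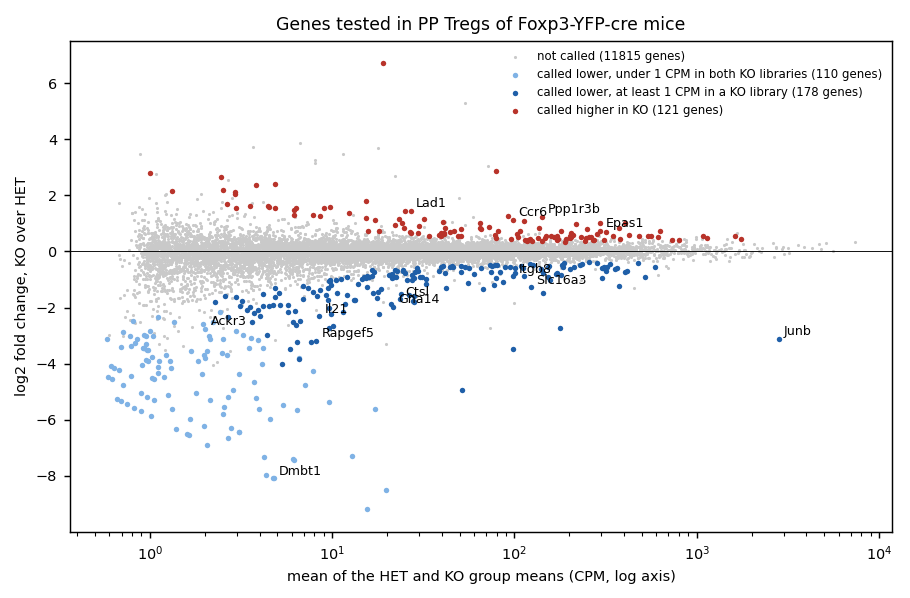
Log2 fold change of KO over HET for each of 12224 genes against the mean of its group means in CPM, on a log axis. Grey points were not called, red points are the 121 genes called higher, dark blue points the 178 called lower that remained at 1 CPM or more in a KO library, and light blue points the 110 called lower that were under 1 CPM in both KO libraries, which lie at the low end of the expression axis.

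Markers of intestinal epithelium were lower in KO. Of 40 epithelial markers tested, 28 were called lower and 0 higher (70%, against 3.35% over all genes). Their median log2 fold change was -3.89 against 0.003 over all genes. Without HET 1 edgeR made 0 of these 28 calls and without HET 2 it made 2, and the median was -1.81 without HET 1 and -1.75 with at least 10 counts in every library. The medians under these settings cover only the markers that still passed the filter. The summed level of the 58 markers in the file was 852 CPM in HET 1, 582 CPM in HET 2, 367 CPM in KO 1 and 362 CPM in KO 2. This sum weighs abundant members most, and 3 of the 40 tested had a positive log2 fold change. Here and below the sum is thus no measure of how far epithelial RNA fell. The 110 genes under 1 CPM in both KO libraries passed the filter through the HET libraries alone. They include 18 of these markers, and 94 of the 110 were higher in HET 1 than in HET 2, against 6173 of all 12224 genes. Apoa1, an apolipoprotein of enterocytes, was at 53.6 and 13.9 CPM in HET and at 0.718 and 0.593 CPM in KO. Epcam and Lgals4, which epithelial cells express, stood in KO 1 and KO 2 at 38.3 and 37.7 CPM and at 15.6 and 13.5 CPM. Of the 58 markers in the file, 18 were at 3 counts or fewer in both KO libraries, the mucin Muc2, the trefoil factor Tff3 and Olfm4 among them. The part of epithelial RNA in any single gene's difference was not tested.

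Markers of other cell types had smaller differences. Of 21 B cell markers, 20 were lower in KO and 2 were called (9.52%, against 3.35% over all genes). Their median log2 fold change was -0.85. The summed level of the 22 in the file was 3635 and 3499 CPM in HET against 2437 and 3062 CPM in KO, so that every KO library was below every HET library. The MHC class II gene H2-Ab1 was called, at 167 and 235 CPM in HET against 86.7 and 125 CPM in KO, and neither B cell call was made without HET 1 or without HET 2. Of 14 myeloid markers tested 0 were called by edgeR's quasi-likelihood test, 3 had an unadjusted p under 0.05 and 1 was called by the exact test and by DESeq2. The summed level of the 23 in the file was 248 and 340 CPM in HET against 291 and 221 CPM in KO. The summed level of 17 plasma cell markers overlapped between the groups, at 887 and 1375 CPM in HET against 1004 and 1332 CPM in KO. S100a8, Ccl19, Ccl21a and Klra8 were the marker genes in the file that had no read in any of the 4 libraries.

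Regulators of the Treg lineage were nearly balanced. Of 36 tested, 2 were called higher and 3 lower (13.9%, against 3.35% over all genes), and the median log2 fold change was 0.02. Foxp3, the lineage-defining factor, was at 83.2 and 89.6 CPM in HET and at 122 and 124 CPM in KO, a log2 fold change of 0.51 (adjusted p = 0.01665 by edgeR). Prdm1, which encodes Blimp-1, a repressor of the follicular program, rose by 0.38 on the same scale from 112 and 104 CPM to 144 and 138 CPM. Tox and Rora, which encode factors of the HMG-box and retinoic acid receptor-related families, were lower in both KO libraries. Tox was at 338 and 311 CPM in HET and at 249 and 233 CPM in KO, and Rora at 173 and 260 CPM in HET and at 119 and 126 CPM in KO. The most abundant regulators without a call were Ets1 and Stat3, with log2 fold changes of 0.14 and -0.07. Without HET 1 the test called 2 of the 5 called regulators and without HET 2 it called 1. Exons of Foxp3 share 1443 bases with other annotated genes, including Flicr and Ppp1r3f, and reads in shared bases go to neither gene under the counting used by the authors.

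Chemokine receptors, the G protein-coupled receptors that direct lymphocytes into and within tissue, were the list with the highest median. Of 17 tested, 4 were called higher and 2 lower (35.3%, against 3.35% over all genes). The median log2 fold change was 0.33 against 0.003 over all genes. The summed level of the 18 in the file was 2789 and 3270 CPM in HET against 3896 and 3947 CPM in KO. Ccr6 (ENSMUSG00000040899.13, GRCm38 chr17:8236043-8257141, plus strand), the receptor of Ccl20 that brings cells under the follicle-associated epithelium, was at 64.8 and 58.7 CPM in HET and at 138 and 133 CPM in KO. This was a log2 fold change of 1.13 (SE 0.0864, adjusted p = 0.001203 by edgeR). Ccr9, the receptor of Ccl25 and a homing receptor for the small intestine, rose by 0.70 from 218 and 266 CPM to 384 and 404 CPM.

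Receptors of inflammatory chemokines also rose. Cxcr3, a receptor of interferon-induced chemokines, was at 63.7 and 58.5 CPM in HET and at 110 and 91.4 CPM in KO, and Ccr2 at 122 and 123 CPM in HET and at 167 and 173 CPM in KO. Ccr8, a receptor of tissue Tregs, went the other way, from 379 and 392 CPM in HET to 239 and 284 CPM in KO. The atypical scavenging receptor Ackr3 fell by 2.76 on the log2 scale, from 3.68 and 3.39 CPM to 0.467 and 0.519 CPM. The 2 most abundant receptors without a call were Ccr7 and Cxcr4. Ccr7, the receptor that leads cells to the T cell zone, was at 1058 and 1541 CPM in HET and at 2044 and 2048 CPM in KO, with a log2 fold change of 0.65 and an adjusted p of 0.08258 by edgeR. Cxcr4, the receptor of Cxcl12, was at 211 and 261 CPM in HET and at 179 and 224 CPM in KO, and its groups overlapped. Of the 6 calls, 1 was made without HET 1, 2 without HET 2 and 5 without either of the KO libraries.

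**Figure D2:**
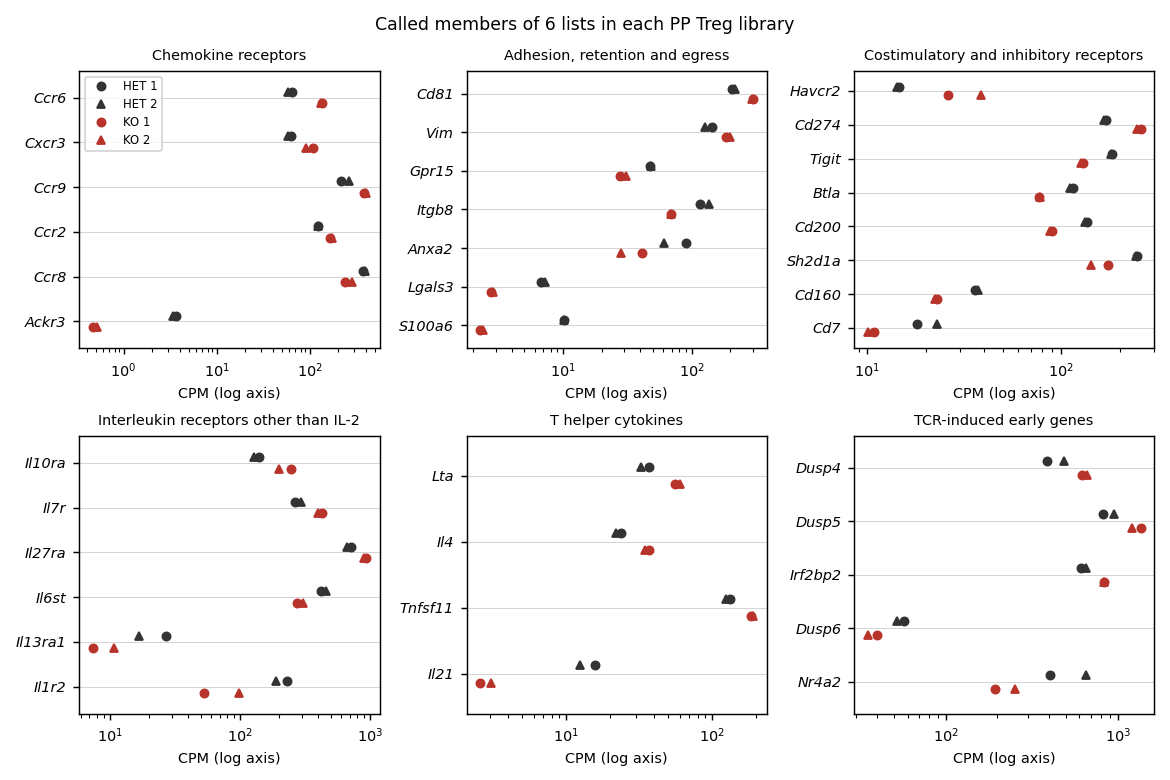
CPM of the called members of 6 gene lists in each library, on log axes, with HET in black and KO in red, circles for replicate 1 and triangles for replicate 2. The red and black points of each gene are separate, as they are for every called gene. The gap is widest for Ackr3, Il21 and S100a6, which are low in both KO libraries.

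Among 36 genes of adhesion, retention and egress, 2 were called higher and 5 lower (19.4%, against 3.35% over all genes). The median log2 fold change was -0.03. Itgb8 (ENSMUSG00000025321.14, GRCm38 chr12:119158022-119238802, minus strand), whose product pairs with the alpha V integrin to activate latent TGF-beta, was at 117 and 138 CPM in HET and at 68.9 and 69.4 CPM in KO. It fell by 0.88 on the log2 scale (SE 0.0979, adjusted p = 0.005309 by edgeR). Gpr15, a receptor that guides T cells to the large intestine, was at 47.2 and 48.4 CPM in HET and at 27.6 and 30.8 CPM in KO. The 2 homing receptors of the gut thus moved in opposite directions, Ccr9 up and Gpr15 down.

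The other calls in the list were S100a6, Anxa2 and Lgals3, lower, and Cd81 and Vim, higher. S100a6, a calcium-binding protein gene, was at 10.2 and 10.2 CPM in HET and at 2.26 and 2.37 CPM in KO. Anxa2 was at 91.2 and 60.7 CPM in HET and at 41.3 and 28.0 CPM in KO, and Lgals3 at 6.72 and 7.25 CPM in HET and at 2.73 and 2.86 CPM in KO. Their relatives S100a10, S100a11 and Lgals1 in the same list had log2 fold changes of -0.01, -0.17 and -0.002 and were not called. The part of epithelial RNA in S100a6, Anxa2 and Lgals3 was not tested. The tetraspanin Cd81 rose from 206 and 216 CPM to 303 and 296 CPM, and the intermediate filament gene Vim from 143 and 128 CPM to 186 and 199 CPM. The abundant integrins Itgb7 and Itgb2 both had a log2 fold change of 0.17 and were not called. Of the 7 calls, 1 was made without HET 1 and 0 without HET 2, where the adjusted p values came from edgeR on 3 libraries.

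Of 31 costimulatory and inhibitory receptors tested, 2 were called higher and 6 lower (25.8%, against 3.35% over all genes). Their median log2 fold change was -0.02. Cd274 (ENSMUSG00000016496.7, GRCm38 chr19:29367455-29388095, plus strand), which encodes PD-L1, was at 170 and 166 CPM in HET and at 257 and 247 CPM in KO. It rose by 0.59 on the log2 scale (SE 0.0731, adjusted p = 0.008337 by edgeR). Havcr2, which encodes the inhibitory receptor TIM-3, rose by 1.16 from 14.6 and 14.1 CPM to 26.1 and 38.3 CPM.

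The 6 genes called lower were Cd200, Tigit, Btla, Cd160, Cd7 and Sh2d1a. Cd200 was at 136 and 133 CPM in HET and at 89.9 and 87.2 CPM in KO. Tigit, the inhibitory partner of Cd226 for nectin-family ligands, was at 183 and 180 CPM in HET and at 129 and 127 CPM in KO. Btla, an inhibitory receptor of the herpesvirus entry mediator, was at 114 and 110 CPM in HET and at 77.1 and 77.6 CPM in KO. These 3 genes had replicates within a few CPM of each other, and their log2 fold changes lay between -0.60 and -0.50. Cd160, a second receptor of the same mediator, fell by 0.70 and Cd7 by 0.96 on the log2 scale. Sh2d1a, the adaptor SAP that T cells need to help germinal centre B cells, fell by 0.62, from 245 and 243 CPM to 175 and 142 CPM. The most abundant members, Ctla4 and Cd83, had log2 fold changes of 0.25 and -0.11 and were not called. Without either HET library 0 of these 8 were called by edgeR, against 8 without KO 1 and 7 without KO 2.

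Receptors of interleukins other than IL-2 split evenly, with 3 called higher and 3 lower of 35 (17.1%, against 3.35% over all genes). Their median was 0.11. Il10ra, the ligand-binding chain of the IL-10 receptor, was at 140 and 129 CPM in HET and at 246 and 201 CPM in KO, a log2 fold change of 0.73 (adjusted p = 0.01322 by edgeR). Il7r rose from 264 and 296 CPM to 428 and 398 CPM, and Il27ra from 710 and 665 CPM to 932 and 893 CPM. Il6st, the shared signalling chain gp130 of the IL-6 family, went down from 424 and 461 CPM to 274 and 308 CPM. Each of these 4 signalling chains was thus separated between the groups by less than 2-fold.

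The decoy receptor Il1r2, which binds IL-1 without signalling and is known from follicular regulatory T cells, fell by 1.47 on the log2 scale. It was at 230 and 191 CPM in HET and at 53.3 and 98.3 CPM in KO, and KO 1 was the lowest. Il13ra1 fell by 1.27, from 27.1 and 16.9 CPM to 7.43 and 10.8 CPM, and is also expressed by epithelium, whose summed marker level was 852 and 582 CPM in HET against 367 and 362 CPM in KO. Ifngr1 and Il21r, the most abundant members without a call, had log2 fold changes of 0.46 (adjusted p = 0.08369 by edgeR) and -0.00. Of the 6 calls, 0 were made without HET 1 or without HET 2, 2 without KO 1 and 5 without KO 2.

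Of 20 T helper cytokines tested, 3 were called higher and 1 lower (20%, against 3.35% over all genes), with a median of 0.15. Il21, the cytokine with which follicular T cells support germinal centre B cells, fell by 2.31 on the log2 scale (SE 0.239, adjusted p = 0.004494 by edgeR), from 15.9 and 12.4 CPM to 2.58 and 3.08 CPM. Tnfsf11, which encodes RANKL, a ligand that PP epithelium needs to form antigen-sampling M cells, rose from 132 and 124 CPM to 186 and 192 CPM. Lta, a subunit of the lymphotoxins that build lymphoid tissue, rose from 36.9 and 32.5 CPM to 56.2 and 60.0 CPM, and Il4 from 23.9 and 22.1 CPM to 37.3 and 34.9 CPM. The abundant Ltb had a log2 fold change of 0.35 and Il16 one of -0.03, and neither was called. Of the 4 calls, 0 were made without HET 1 and 1 without HET 2. Genes of type 2 immunity and of Tregs with the IL-33 receptor ST2 share Il4, Ccr8 and Rora with the lists above. These were the 3 calls, 1 higher and 2 lower, of 18 tested (16.7%), with a median of 0.30. Gata3 and Nfil3, the most abundant others, had log2 fold changes of 0.29 and -0.21 and were not called. In the list of 29 TNF superfamily genes 10.3% were called, against 3.35% over all genes. Tnfsf11 and Lta were the 2 called higher. Tnfsf13b, the B cell survival factor BAFF, was the 1 called lower, at 5.52 and 6.88 CPM in HET against 2.22 and 2.04 CPM in KO. None of these 3 was called without HET 1 or without HET 2.

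Of 28 genes that T cell receptor signals induce early, 3 were called higher and 2 lower (17.9%, against 3.35% over all genes). Their median was 0.10. The orphan nuclear receptor gene Nr4a2 fell by 1.24 on the log2 scale, from 406 and 651 CPM to 194 and 252 CPM. The phosphatases that switch off MAP kinases were not uniform. Dusp5 was at 825 and 952 CPM in HET and at 1363 and 1209 CPM in KO, and Dusp4 at 391 and 489 CPM in HET and at 620 and 660 CPM in KO. Dusp6 was at 57.3 and 52.4 CPM in HET and at 40.01 and 35.1 CPM in KO. Irf2bp2, a transcriptional corepressor gene, rose by 0.39 on the log2 scale. Dusp1 and Tnfaip3, the most abundant members, had log2 fold changes of 0.10 and 0.26 and were not called. Adjusted p values of the 5 calls lay between 0.0217 and 0.04975 by edgeR, close to the threshold, and 1 call was made without HET 1 and 0 without HET 2.

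Of 38 feedback regulators 1 was called higher and 2 lower (7.89%), and of 27 NF-kB subunits and targets 2 were called higher and 1 lower (11.1%), against 3.35% over all genes. Socs3, an inhibitor of gp130 and STAT3 signals, was at 484 and 517 CPM in HET and at 709 and 739 CPM in KO. Rgs16, which damps signals of chemokine receptors, was at 158 and 134 CPM in HET and at 74.5 and 85.0 CPM in KO. Nfkbia, the inhibitor and early target of NF-kB, rose by 0.54 on the log2 scale from 1220 and 1432 CPM to 1949 and 1911 CPM, while Malt1, a protease that activates NF-kB downstream of antigen receptors, fell by 0.56 from 403 and 339 CPM to 245 and 259 CPM. Of the 27 NF-kB genes 23 had a positive log2 fold change, with a median of 0.14, most of them short of a call. Bcl2, which protects from mitochondrial cell death, was the 1 call among 31 genes of the BCL2 family and cell death (3.23%). It was at 228 and 206 CPM in HET against 301 and 322 CPM in KO. For the NF-kB list 0 calls were made by edgeR without HET 1 or without KO 1, and 1 each without HET 2 or without KO 2. Of the 3 feedback calls 0 were made without HET 1 and 1 without HET 2, and Bcl2 was not called without HET 1, HET 2 or KO 2.

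AP-1 partners of JunB gave 1 call. Of 22 tested, 1 was called lower and 0 higher (4.55%, against 3.35% over all genes), and the median log2 fold change was -0.03. Jdp2, a repressor that pairs with Jun proteins, was at 9.52 and 10.02 CPM in HET and at 4.45 and 3.86 CPM in KO, and lost its call when any 1 of the 4 libraries was left out. Fos and Crem, the most abundant others, had log2 fold changes of -0.16 and 0.24, and their libraries overlapped between groups. Fos was at 1107 and 1487 CPM in HET and at 1116 and 1203 CPM in KO. Genes of heat shock and tissue dissociation differed between the HET libraries themselves, with summed levels of 8937 and 12688 CPM, against 9247 and 9757 CPM in KO. Of 25 such genes 0 were called higher and 1 lower (4%, near the share over all genes). That call was Ddit4, an inhibitor of mTORC1 induced by stress and glucocorticoids, at 136 and 100 CPM in HET against 57.6 and 53.8 CPM in KO, and it was not called without HET 1.

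Of 39 proteases and inhibitors tested, 1 was called higher and 2 lower (7.69%, against 3.35% over all genes), and the median was 0.03. Ctsl (ENSMUSG00000021477.9, GRCm38 chr13:64359337-64370890, minus strand), the lysosomal cathepsin L, was at 36.9 and 34.9 CPM in HET and at 9.98 and 11.9 CPM in KO. It fell by 1.71 on the log2 scale (SE 0.137, adjusted p = 0.001487 by edgeR) and was called without any 1 of the 4 libraries. Exons of Ctsl share 1742 bases with unnamed annotated genes. Serpina3g, a serpin of activated lymphocytes that inhibits cathepsins, rose by 0.81 from 177 and 186 CPM to 320 and 318 CPM. Ctsh, which encodes cathepsin H, fell by 1.15, and the abundant Ctsb had a log2 fold change of -0.28 and was not called.

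Cytotoxic genes and NK receptors gave 2 calls of 16 (12.5%, against 3.35% over all genes), both lower. Klrb1c, which encodes NK1.1 in C57BL/6 mice, was at 21.8 and 19.2 CPM in HET and at 6.28 and 5.97 CPM in KO. Nkg7, a granule membrane gene, was at 17.9 and 35.5 CPM in HET and at 10.2 and 6.90 CPM in KO. Of these 2 calls, 1 was made without HET 1, without HET 2 or without KO 2. Gzma, which encodes the granule protease granzyme A and is not in this list, fell by 3.47 on the log2 scale (adjusted p = 0.001853 by edgeR), from 128 and 230 CPM to 19.6 and 12.6 CPM. The summed level of 20 markers of cytotoxic T, NK and innate lymphoid cells was higher in both KO libraries, at 490 and 541 CPM in HET and at 710 and 654 CPM in KO. Il7r, the most abundant of these markers, rose as given above, while Klrb1c, also among them, fell. Of 12 tested, 1 was called higher and 2 lower (25%, against 3.35% over all genes). The sum is thus no measure of these cell types.

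Metabolic genes were called in some lists and not in others. Slc16a3 (ENSMUSG00000025161.16, GRCm38 chr11:120948480-120960868, plus strand), which encodes the lactate exporter MCT4, was at 170 and 178 CPM in HET and at 63.4 and 80.2 CPM in KO. It fell by 1.28 on the log2 scale (SE 0.113, adjusted p = 0.002177 by edgeR) and kept its call without each library in turn. The monocarboxylate transporter Slc16a6 rose from 83.9 and 79.1 CPM to 141 and 107 CPM. These were the 2 calls among 34 genes of glycolysis and glucose uptake (5.88%, against 3.35% over all genes). Hif1a and Ldha, the most abundant others, had log2 fold changes of -0.33 (adjusted p = 0.123 by edgeR) and -0.02. Of 35 genes of fatty acid oxidation, 40 of cholesterol and fatty acid synthesis and 20 of the adenosine and ATP pathway, 0 were called by edgeR, and their medians lay between -0.07 and -0.02. An unadjusted p under 0.05 was reached by 7, 6 and 8 of them, and DESeq2 called 0, 3 and 2 and the exact test 0, 2 and 1. Of 77 cytosolic ribosomal protein genes, 75 nuclear and 7 mitochondrial respiratory chain subunits 0 were called by edgeR, with medians of 0.09, 0.03 and -0.13. An unadjusted p under 0.05 was reached by 1, 0 and 1 of them, the exact test called 0 and DESeq2 called 1, a mitochondrial one.

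The retinoid genes held calls in both directions. Stra6, a membrane receptor that takes up retinol, was at 5.17 and 4.48 CPM in HET and at 16.9 and 12.5 CPM in KO, a log2 fold change of 1.60. Dhrs3, a retinaldehyde reductase induced by retinoic acid, rose by 0.56 from 136 and 141 CPM to 215 and 195 CPM. Aldh1a1, a retinaldehyde dehydrogenase, was at 1.26 and 1.13 CPM in HET and at 0 and 0.0742 CPM in KO, with 0 and 2 counts. Together these were 3 of 14 genes (21.4%, against 3.35% over all genes) of aryl hydrocarbon receptor, retinoid and vitamin D sensing. Ahr and its target Tiparp had log2 fold changes of 0.07 and -0.07. Amino acid and nucleotide transporters held 1 call in each direction of 22 (9.09%), and glutathione and antioxidant genes 2 lower of 36 (5.56%). The amino acid transporter Slc1a4 fell by 3.45, from 9.27 and 6.15 CPM to 0.790 and 0.556 CPM. Hmox1, heme oxygenase 1, was at 19.6 and 20.6 CPM in HET and at 10.05 and 11.8 CPM in KO, and Ggt1, which starts the breakdown of glutathione outside cells, at 5.36 and 2.59 CPM in HET and at 0.897 and 0.816 CPM in KO. Among 188 solute carriers 4 were called higher and 9 lower (6.91%, against 3.35% over all genes), with a median of -0.04. Aldh1a1, Slc1a4 and Ggt1 are also expressed by epithelium, whose summed marker level was 852 and 582 CPM in HET against 367 and 362 CPM in KO, and its part was not tested. None of the calls among retinoid, glutathione and amino acid transporter genes was made without HET 1 or without HET 2, and of the 13 solute carrier calls 1 and 2 were made.

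Interferon-stimulated and cell cycle genes were called at 4.41% and 1.33%, against 3.35% over all genes. Of 68 interferon-stimulated genes 1 was called higher, Gbp3 at 162 and 174 CPM in HET against 255 and 225 CPM in KO, and 2 lower, Oasl2 and Parp12, with log2 fold changes of -1.05 and -0.70. Of 75 cell cycle genes 1 was called, the phosphatase gene Cdc25b, which fell by 0.58, and 53 had a negative log2 fold change with a median of -0.10. None of these 4 calls was made without HET 1, HET 2 or KO 1. In the list of 27 Wnt, Notch and Hippo genes 2 were called higher and 1 lower (11.1%, against 3.35% over all genes). The call with the widest difference was Sostdc1, a secreted inhibitor of BMP and Wnt signals, which fell by 4.95 on the log2 scale (adjusted p = 0.0006058 by edgeR), from 121 and 78.6 CPM to 4.13 and 2.26 CPM. Rbpj, the DNA-binding partner of Notch, rose from 29.9 and 38.1 CPM to 50.6 and 58.9 CPM, and Rnf43, which removes Wnt receptors from the surface, from 116 and 125 CPM to 168 and 186 CPM. Of the 3 calls, 1 was made without HET 1 or without HET 2.

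**Figure D3:**
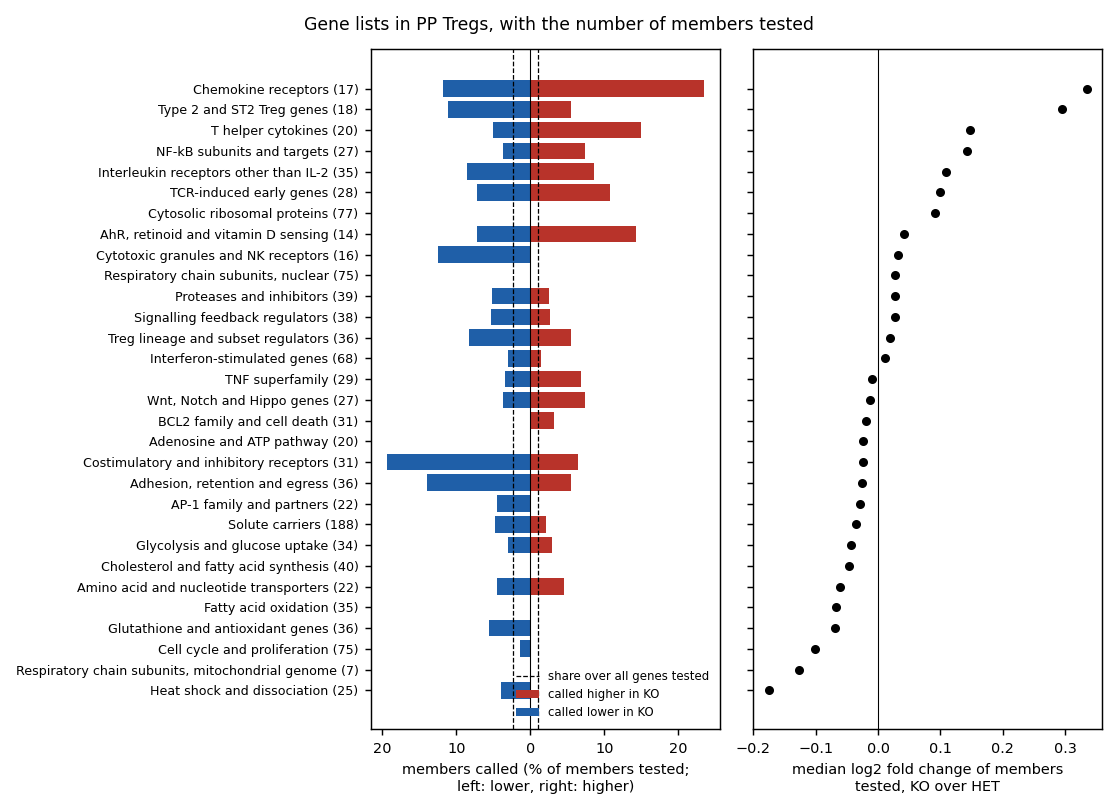
Left, percent of tested members of each gene list, other than cell type markers and antigen receptor variable genes, that were called lower (blue, to the left) or higher (red, to the right) in KO, with dashed lines at the shares over all genes tested, 2.36% and 0.990%. Right, median log2 fold change of the tested members. Among the lists plotted, chemokine receptors have the highest median and the largest share called higher, costimulatory and inhibitory receptors have the largest share called lower, and 6 have no call.

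Several of the increases with the lowest p values by edgeR lay outside the lists. Epas1 (ENSMUSG00000024140.9, GRCm38 chr17:86753700-86833410, plus strand), which encodes the hypoxia-inducible factor HIF-2 alpha, was at 224 and 220 CPM in HET and at 363 and 375 CPM in KO. It rose by 0.73 on the log2 scale (SE 0.0744, adjusted p = 0.003682 by edgeR). Podnl1, a leucine-rich repeat proteoglycan gene, was at 290 and 244 CPM in HET and at 544 and 545 CPM in KO. Fastkd3, a mitochondrial RNA-binding protein gene, was at 43.3 and 42.4 CPM in HET and at 83.1 and 89.7 CPM in KO. Lad1, which encodes ladinin, an anchoring filament protein of epithelium, rose by 1.44 from 14.7 and 14.3 CPM to 43.6 and 35.2 CPM. Scin, which encodes the actin-severing protein scinderin, rose from 18.8 and 19.4 CPM to 112 and 166 CPM, and Socs2 and Cish, feedback inhibitors of cytokine signals, rose by 1.27 and 1.02 on the log2 scale. Ppp1r3b, which targets protein phosphatase 1 to glycogen, rose from 87.1 and 82.5 CPM to 226 and 174 CPM, and Ccn4, a secreted Wnt-induced matricellular gene, from 78.9 and 65.9 CPM to 136 and 173 CPM. Fastkd3, Ppp1r3b and Ccn4 were not called without HET 1 or without HET 2, and Lad1 was not called without HET 1, where adjusted p values ran from 0.05049 to 0.07927 by edgeR.

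Among the genes that fell, Rapgef5 and Gna14 code for signalling proteins. Rapgef5 (ENSMUSG00000041992.9, GRCm38 chr12:117516479-117759737, plus strand), an exchange factor that activates Rap GTPases, was at 13.4 and 16.0 CPM in HET and at 1.33 and 1.85 CPM in KO. It fell by 3.18 on the log2 scale (SE 0.261, adjusted p = 0.001625 by edgeR). Gna14, a G protein alpha subunit of the Gq class, was at 37.4 and 31.2 CPM in HET and at 9.62 and 7.79 CPM in KO. Baiap3, which takes part in vesicle exocytosis, was at 88.6 and 104 CPM in HET and at 37.4 and 39.4 CPM in KO, and Coq8a, an atypical kinase of ubiquinone synthesis, at 217 and 216 CPM in HET and at 129 and 124 CPM in KO. In all 4 the gap between the groups was wider than that between replicates, but genes were named only where the groups did not overlap.

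Lypd8, Dmbt1, Pigr and Enpep, which also fell, are known from intestinal epithelium. Lypd8, a secreted protein that keeps flagellated bacteria off the colonic epithelium, was at 12.3 and 12.2 CPM in HET and at 0 and 0.0742 CPM in KO. Dmbt1, a mucosal scavenger receptor, was at 10.01 and 9.14 CPM in HET and without a read in KO. Pigr, the polymeric immunoglobulin receptor that carries IgA across epithelium, was at 24.9 and 12.6 CPM in HET and at 0.323 and 0.519 CPM in KO, and Enpep, aminopeptidase A of the brush border, at 8.97 and 6.63 CPM in HET and at 0.431 and 0.482 CPM in KO. How much of the fall of Lypd8, Dmbt1, Pigr and Enpep was that of epithelial RNA was not tested.

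Variable genes of T cell receptors gave 2 calls. Of 63 T cell receptor alpha and beta variable genes tested, 1 was called higher and 1 lower (3.17%, against 3.35% over all genes). The summed level of the 130 in the file was 850 and 753 CPM in HET against 815 and 717 CPM in KO. Trbv16 was at 31.2 and 29.8 CPM in HET and at 52.3 and 44.5 CPM in KO, and Trav1 at 4.07 and 3.75 CPM in HET and at 1.26 and 1.30 CPM in KO. Of 8 immunoglobulin variable genes tested 1 was called higher and 3 lower (50%, against 3.35% over all genes), with log2 fold changes from -6.42 to 6.72 and a median of -2.65. The rise was that of Igkv8-27, from 0.420 and 0.219 CPM to 42.1 and 33.5 CPM (adjusted p = 4.742e-05 by edgeR), the lowest p among genes that rose. Of the 4 calls, 1 was made without HET 1 or without HET 2, and the median was 3.36 and 4.98 there. Those medians cover only the members that still passed the filter. Of the genes called lower, some differed between the HET libraries, Igkv10-96 being at 5.26 and 19.5 CPM in HET and at 0.754 and 0.964 CPM in KO. Variable genes resemble each other in sequence, and reads that align to more than 1 place were left out by the authors, so that these values are uncertain.

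The same genes were read in the inducible line of the study, in which mice of both sexes had JunB F/+ (iHET) or F/F (iKO) alleles with Foxp3ERT2cre and Rosa26-tdTomato and received 3 doses of 8 mg of tamoxifen before collection on day 7. There CD25- PP Tregs gave 2 iHET and 2 iKO libraries and colonic Tregs 3 and 3. The study housed 1 iHET and 1 iKO animal of the colonic set per cage and found that these libraries clustered by cage. It fitted cage as a term, which the main fit here left out. The line, gate, sequencing run, sex and time since deletion differ together from the constitutive line and cannot be told apart. Of the 121 genes called higher in PP Tregs, 87 (71.9%) had a positive log2 fold change in CD25- PP Tregs and 77 (63.6%) in colonic Tregs, and over all genes the sign was the same for 49.4% and 53.1%. Of the 288 called lower, 53.5% and 51.7% had the same sign. Those under 1 CPM in both KO libraries had the same sign in CD25- PP Tregs for 77.3% and in colonic Tregs for 33.6%, and the other 178 for 38.8% and 62.9%. The genes of a fit share their libraries, and these shares are a description.

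Tests of the difference between the constitutive and the induced effect called few genes. The log2 fold change of PP Tregs differed from that of CD25- PP Tregs for 11 of 18424 genes (0.0597%) and from that of colonic Tregs for 37 (0.201%). With the replicate block in the fit, 0 were called in either comparison, and replicate numbers are not said to mark a cage. The differences below are those of the main fit. Of the 409 genes called in PP Tregs, 3 and 16 were among them. For Rapgef5 the log2 fold change was -3.18 in PP Tregs, -0.13 in CD25- PP Tregs and 0.11 in colonic Tregs, and both differences passed the test, with adjusted p values of 0.02156 and 0.003951 by edgeR. For Ccr6 the values were 1.13, 0.28 and 0.19, for Ctsl -1.71, 0.54 and 0.01, for Slc16a3 -1.28, 0.45 and -0.33 and for Epas1 0.73, 0.53 and -0.17. The differences for these 4 genes did not pass the test, with adjusted p values from 0.1363 to 1, which does not show that the effects were alike. Within the inducible line itself, Junb was the 1 gene called in CD25- PP Tregs and 1 of the 2 called in colonic Tregs, with log2 fold changes of -2.45 and -2.89. The other gene called in colonic Tregs was Lta, with a log2 fold change of 1.06 there, 0.74 in PP Tregs and 0.03 in CD25- PP Tregs. An unadjusted p under 0.05 in edgeR's test was reached by 527 and 930 of 18424 genes. A share of 0.05 would be expected without any effect. The study's own tests, with cage as a term for colonic Tregs, called more genes in both.

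**Figure D4:**
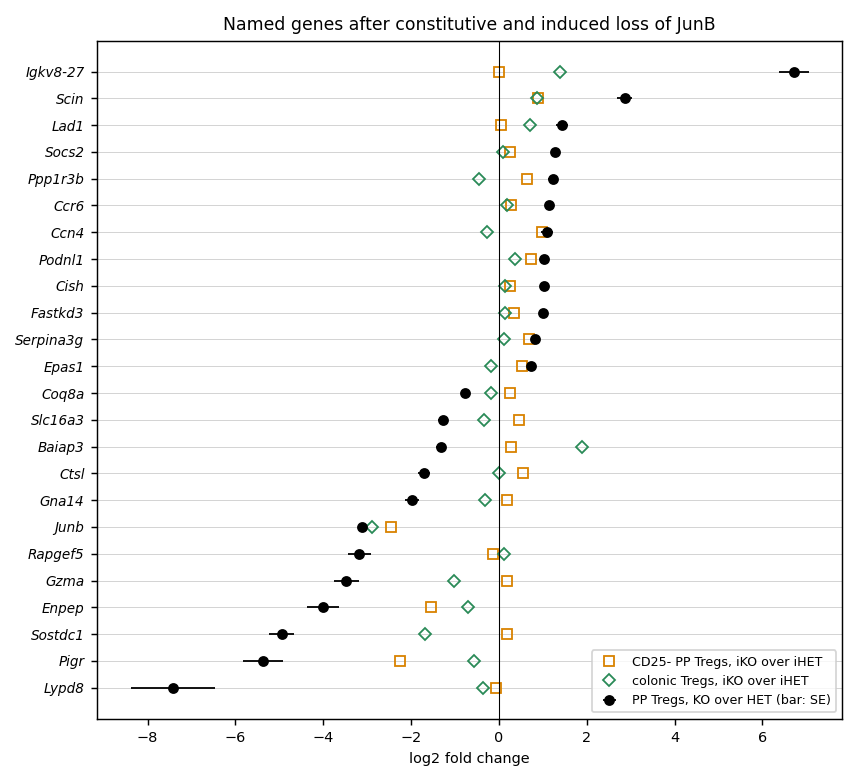
Log2 fold changes of 24 named genes in PP Tregs of the constitutive line (black points, bars of 1 SE) and in CD25- PP Tregs (orange squares) and colonic Tregs (green diamonds) of the inducible line. Junb is low in all 3, whereas most other symbols of the inducible line lie nearer to 0 than the black points, and Dmbt1, without a read in KO, is left out because it has no SE.

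AP-1 dimers bind the palindrome TGANTCA, and the related spacing TGANNTCA is bound by dimers with CREB and ATF proteins. Both were searched, each palindrome reading the same on the 2 strands, in the RefSeq promoters of GRCm38.p6, each of 300 bases from 250 before to 50 after a start. Promoters were matched by symbol for 9252 of 12224 genes tested. TGANTCA was in 4.87% of their promoters, in 6.90% of the 116 promoters of genes called higher, in 10.1% of the 277 of genes called lower and in 7.81% of all 32851 promoters of the table. Of the genes called lower, those under 1 CPM in both KO libraries had it in 14.4% of 97 promoters. Those at 1 CPM or more in a KO library had it in 7.78% of 180. The genes under 1 CPM in both KO libraries passed the filter through the HET libraries alone and include 18 epithelial markers. Their share, which also enters the 10.1%, is thus no measure of a link to JunB. TGANNTCA was in 10.4% of the promoters of tested genes, 10.3% of those of genes called higher and 10.8% of those called lower. A match is a description of letters and not a site of binding, and no binding was measured.

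Matched stretches from the promoters of genes described above are shown to place these letters, from bases that lie outside annotated genes and 5′ to 3′ on the strand of the gene, with the motif in capitals.
Rapgef5 (lower in KO, chr12:117516374-117516478, plus strand, TGANNTCA at 2 places): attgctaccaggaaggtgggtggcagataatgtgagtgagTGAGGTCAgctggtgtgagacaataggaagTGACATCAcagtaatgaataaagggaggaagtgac
Anxa2 (lower in KO, chr9:69453548-69453619, plus strand, TGANTCA): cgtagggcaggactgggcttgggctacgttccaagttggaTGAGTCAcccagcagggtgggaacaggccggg
Havcr2 (higher in KO, chr11:46454691-46454777, plus strand, TGANTCA): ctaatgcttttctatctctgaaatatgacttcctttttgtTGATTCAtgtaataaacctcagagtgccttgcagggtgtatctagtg
Ccr6 (higher in KO, chr17:8235950-8236037, plus strand, TGANNTCA): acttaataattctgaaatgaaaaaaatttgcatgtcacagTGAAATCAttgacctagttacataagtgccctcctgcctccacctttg
Among 106 named genes and called list members, 80 had a promoter in the table, and 9 of these held TGANTCA and 10 held TGANNTCA upstream of a start. The matches stood before genes that rose and before genes that fell.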

How the data were processed

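RNA of sorted PP Tregs was sequenced in 2 HET and 2 KO libraries. Per the labels and the study's methods, the authors trimmed 50-base single-end reads with Trim Galore, aligned them with STAR to mm10 (GRCm38), leaving out multi-mapped reads, and counted them per gene with featureCounts at default settings, without strand. The deposited values are whole counts, not normalized or filtered. The deposited tables held no other columns of values.

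Gene symbols, positions and overlaps came from GENCODE M21 by gene ID, with 53706 of 53801 IDs matched, while the study names release 22. Genes that reached 1 CPM in 2 or more libraries were scaled by TMM and tested with edgeR 4.0.16 (quasi-likelihood, R 4.3.3, prior count 1, Benjamini-Hochberg adjusted p under 0.05 over all genes). The study used edgeR's exact test, run here as an alternative beside DESeq2 1.42.0, other scalings and filters, a replicate block and leaving out each library. Differences from the inducible line were tested by edgeR over all 14 libraries in 6 groups, which held 26274861 to 35508709 counts, including paired-end libraries that the authors treated as single-end. A floor of 3 counts was 0.0991 to 0.110 CPM per library. The reads have no molecular identifiers, and floors cover counting error only. The tests were also run on simulated counts, for which no outcome is given here.

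Gene lists and rules were chosen with earlier results of these data known. Named genes were Junb, the 12 with the lowest p in each direction that had a symbol, non-overlapping groups, 5 CPM or more in a group and no place in a marker list of another cell type, and, per list, called members and up to 2 abundant members without a call. Epithelial and other markers named beyond the most abundant, Apoa1, Lgals4, Muc2, Tff3 and Olfm4, and those without a read, were chosen after their values were seen. Of the 409 called genes, 113 share exon bases with another annotated gene. Figures were made in Python 3.11.15 using matplotlib 3.10.9.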

Additional observations from a re-analysis of the deposited data

Results flagged for a closer look

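The effect of Junb loss differed between the constitutive and the inducible line, by edgeR's test of the difference itself, for 17 of the 409 genes called in PP Tregs. This fit held no term for cage. With the replicate block 0 differences were called in either comparison. That block follows the replicate numbers, which are not said to mark a cage, so that it does not stand for cage. Rapgef5 differed from both inducible comparisons, by -3.05 on the log2 scale from CD25- PP Tregs (adjusted p = 0.02156) and by -3.29 from colonic Tregs (adjusted p = 0.003951), and so did the unnamed gene AC169509.1, by -2.37 and -2.38. Plekhg3 differed from CD25- PP Tregs by -1.25 (adjusted p = 0.04875).

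Havcr2 and Cish had larger effects in PP Tregs than in colonic Tregs in the positive direction, with differences of 1.84 (adjusted p = 0.04342) and 0.89 (adjusted p = 0.02214). The other differences from colonic Tregs were negative, and most belong to genes that were at or near 0 in the KO libraries. They were -7.84 for Slc5a1, -3.30 for Enpep, -5.65 for Cps1, -3.45 for Gdpd1, -5.96 for Tmem98, -5.57 for Itln1 and -4.96 for Npc1l1, and also -4.76 for Creb3l3, -4.54 for Entpd8, -4.89 for Ace, -4.63 for Aldh1a1 and -3.44 for Aspa, with adjusted p values from 0.02214 to 0.04904. Tmem98 had no read in either KO library, so that its fitted value depends on the prior count and is no bound. The summed epithelial marker level in PP Tregs was 852 and 582 CPM in HET against 367 and 362 CPM in KO. This sum is no measure of how far epithelial RNA fell, and the part of epithelial RNA in these differences was not tested. Line, gate, sequencing run, time since deletion and, for colonic Tregs, organ differ together and cannot be told apart.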

How the results depend on the processing

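The direction of all 409 calls was kept, among genes still tested, under every alternative run. The HET and KO libraries did not overlap for any of the 409. Leaving out a library or changing the test could thus hardly reverse a direction, and this is no check. Against 409 calls (121 higher, 288 lower), the exact test gave 689 (233 and 456), DESeq2 696 (255 and 441), no filter 1305 (436 and 869) and the replicate block 1015 (396 and 619). RLE and upper-quartile scaling and a minimum of 10 counts in each library gave 401, 404 and 313. Leaving out a library gave 36 to 390 calls, with 11 to 119 higher and 25 to 305 lower. Without HET 1, 32 of the 299 called genes still tested were called, and without HET 2, 50 of 299. The 110 genes under 1 CPM in both KO libraries cannot pass the filter with 1 HET library, and the cause of the other losses was not tested. The replicate numbers are not said to mark a litter or cage, the deviations of same-numbered libraries correlated at 0.098 over 2 pairs, and the block kept all 409 calls.

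The difference from CD25- PP Tregs was called for 11 genes, against 455 without a filter, 1 with at least 10 counts in each library, 115 by DESeq2, 0 with the replicate block and 1 to 24 with a library left out. The difference from colonic Tregs was called for 37 genes, against 688, 2, 209 and 0 under the same settings and 3 to 54 with a library left out. The part of low counts in these changes was not tested.

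The median of the 8 immunoglobulin variable genes, -2.65, moved most. It was 3.36 without HET 1, 4.98 without HET 2, -5.84 without KO 2 and 3.15 with at least 10 counts in every library. Each median covers only the members that passed the filter in that run, so that the sets of genes can differ. The part of this in the changes was not tested. That of epithelial markers lay between -4.63 and -1.75. Without HET 1 the medians of early, cytokine and cell cycle genes were -0.13, -0.06 and 0.07, and without HET 2 that of heat shock genes was 0.10, each with its sign changed.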

Other observations

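Genes outside the lists, chosen after their values were seen, add values to the comparison of KO with HET. Lrrc32 encodes GARP, the surface anchor of latent TGF-beta. It was at 930 and 965 CPM in the HET libraries, below the 1227 and 1420 CPM of the KO libraries. Gpr83, a receptor gene of Tregs, was at 240 and 206 CPM in the HET libraries, against 370 and 313 CPM in the KO libraries. Hopx, a homeodomain cofactor, rose by 0.54 and Bhlhe40, a transcriptional repressor, by 0.45 on the log2 scale. Odc1, the first enzyme of polyamine synthesis, was at 249 and 289 CPM in HET 1 and HET 2, and its KO values were 445 and 521 CPM. Adjusted p values of these 5 by edgeR ran from 0.00922 to 0.04601, and the groups did not overlap for any of them, as for every called gene.

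The cytokine gene Il1b and the chemokine gene Cxcl2 were low and lower in KO. Il1b was at 6.46 and 14.5 CPM in the HET libraries, against 1.51 and 2.11 CPM in the KO libraries. Cxcl2 was at 4.16 and 6.96 CPM in the HET libraries, against 1.22 and 1.34 CPM in the KO libraries. Their adjusted p values by edgeR were 0.02008 and 0.02546. The summed level of 23 myeloid markers was 248 and 340 CPM in the HET libraries and 291 and 221 CPM in the KO libraries, and its part was not tested. Ephx1, which encodes microsomal epoxide hydrolase, was at 369 and 374 CPM in the HET libraries, against 245 and 243 CPM in the KO libraries.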
